A study of Mus musculus with 36 samples.

Results

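The genes described here are 28 listed genes of inhibitory synapses, out of 55359 genes in the table. They comprise 12 GABAA receptor subunit genes, 2 rho subunit genes (Gabrr1 and Gabrr2), 2 GABAB receptor genes, 5 glycine receptor genes, and 7 genes for the scaffold, the chloride cotransporters and synaptic organisers. Receptor subunits outside the list were not analysed here. The rule lists genes by function, and no measured value enters it.

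Each of 36 libraries is 1 mouse neuron, and 2 neurons belong to each of 18 clones, the offspring of 1 progenitor marked on embryonic day 12. All animals carried the MADM cassettes on chromosome 11, in which recombination labels the daughters of single dividing cells. The genotype was M11GTTG-Fz10-CreER in 22 cells of 11 clones and M11GTTG-Sox2-CreER in 14 cells of 7 clones, so the drivers mark the progenitors in which Fz10 or Sox2 is active. The tissue label was sSC for 22 cells, dSC for 12 and PAG for 2, taken as superficial and deep superior colliculus and periaqueductal grey. The age at collection and the animal of each clone are not stated in the labels used here, and lines were on a mixed C57/Bl6, FVB and CD1 background.

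GABAA receptors are chloride channels built from alpha and beta subunits with a gamma or delta subunit, and the alpha type sets where the receptor sits and which drugs bind it. The subunits encoded by Gabrr1 and Gabrr2 form GABA-gated channels that are best known from the retina. Glycine receptors are chloride channels of alpha subunits that pair with a beta subunit, and that beta subunit binds the scaffold gephyrin. In the superior colliculus, which maps visual and other sensory input onto orienting movements, both GABA-releasing and glutamate-releasing neurons receive inhibition.

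Values are the deposited signal, named TPM of exon plus intron, which totals 2000000 in each cell. Levels are set side by side between genes on the assumption that they are length-normalised, since the formula was not stated. Depth is unknown, and a 0 may reflect a transcript that was not captured. The number of genes at 1 or more ran from 2661 to 16769 per cell with a median of 12058. Cell B.2 (clone B, cell 2, sSC), the lowest, listed 4 of the 28 genes at 1 or more, against 13 to 25 in the other cells and a median of 19.5. Across the 36 cells that number followed the number of all genes at 1 or more (Spearman's rho 0.88, and 0.87 without B.2, as a description). The neuronal gene Snap25 ran from 299.8 to 4008. Transcripts of other cell types were present in most cells: 8 oligodendrocyte markers, led by Mbp and Cnp, summed to 336 or more in every cell. The 12 microglial markers, led by Ctss and Tyrobp, summed to a median of 1835 and the 10 astrocyte markers, led by Aldoc and Slc1a3, to 797. Neither the 6 vascular markers nor the oligodendrocyte precursor markers (Pdgfra, Cspg4) had a gene with a median above 0. The part of these transcripts in the levels below was not tested.

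Cells were sorted by Gad1 and Gad2, which encode GABA-synthesising enzymes, and Slc17a6, a vesicular glutamate transporter, at a signal of 100. This gave 19 Gad-rich cells of 14 clones, with at least 1 Gad gene and no Slc17a6 at that level, and 11 Slc17a6-rich cells of 9 clones with the reverse. Another 5 cells had both and 1 had neither. None of these 3 genes is among the 28. Several cells lay near the line, such as K.2, a Gad-rich cell with Slc17a6 at 95.4.

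Gphn and Gabbr1 were the 2 of the 28 genes at 1 or more in all 36 cells. Gphn encodes gephyrin, which anchors glycine and GABAA receptors, and was between 62.8 and 748 in all 36 cells, with a median of 187. Glrb, the glycine receptor beta subunit, had a median of 266 and was at 10 or more in 35 cells, B.2 being the exception. Gabbr1, the GABAB subunit that binds GABA, had a median of 112 and a lowest value of 4.56 in L.2. Its partner Gabbr2, which couples the receptor to G proteins, had a median of 36.6 and reached 10 in 28 cells. Both GABAB genes were at 10 or more in 27 cells. At the other end Gabre, the epsilon subunit, was listed at 0 in all 36 cells, and Gabrq, the theta subunit, reached 10 in 4.

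**Figure D1:**
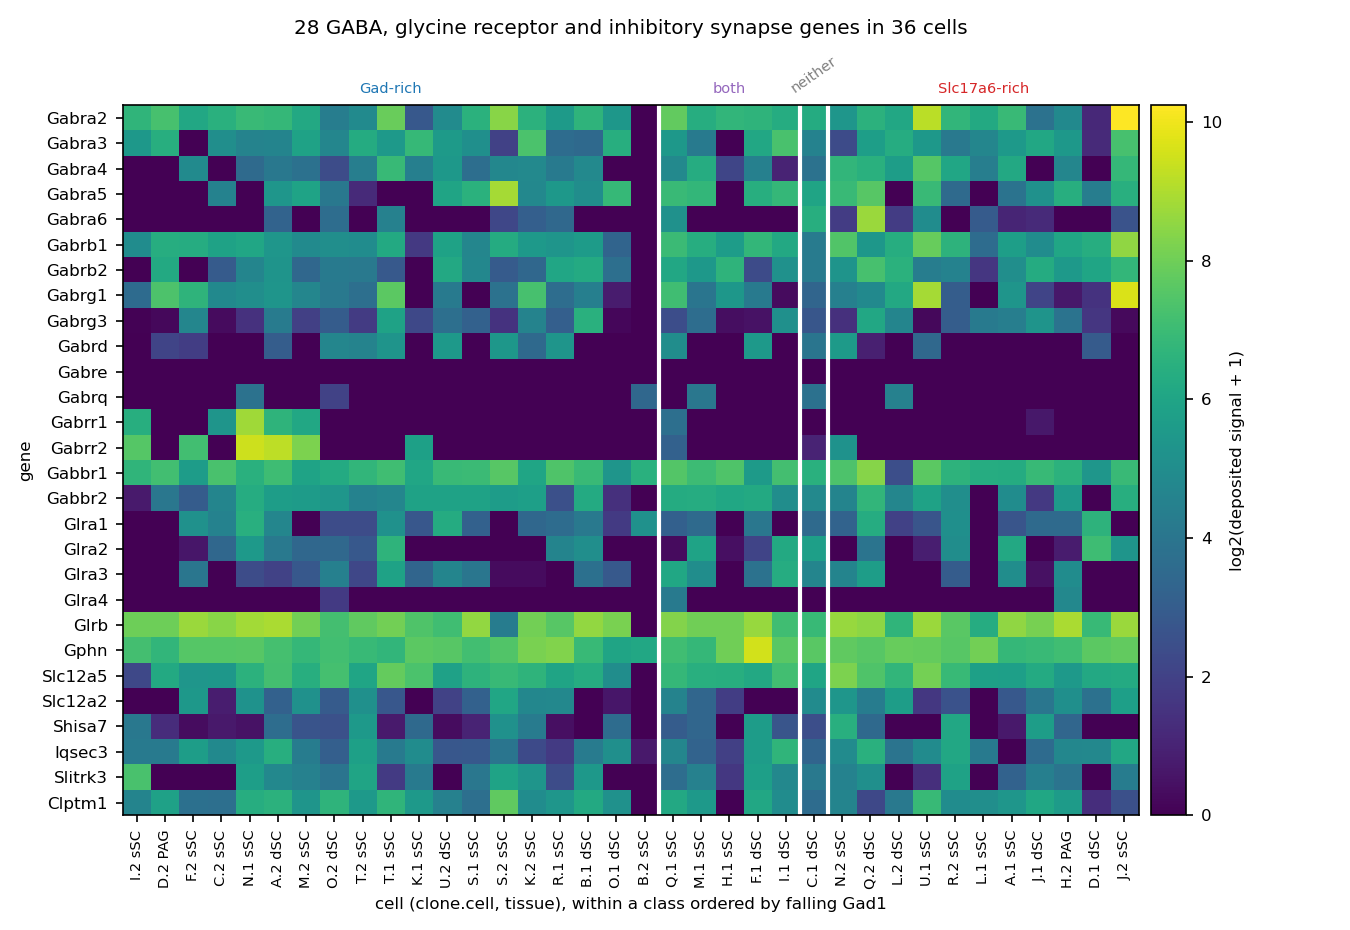
Signal of the 28 genes (rows) in the 36 cells (columns) as log2(signal + 1), with cells grouped by transmitter class and ordered by falling Gad1 within each class. Gphn is filled in 36 of 36 cells, Gabre is empty throughout, and the 2 rho genes are confined to 10 cells at 1 or more, most of them on the left.

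Most cells carried several alpha subunit genes at once. Gabra2, an alpha subunit common at forebrain synapses, had a median of 86.5 and was at 10 or more in 33 cells. It was the highest of the 5 listed alpha genes in 19 cells, Gabra3 and Gabra5 in 7 each, Gabra6 in 2 and Gabra4 in none. Gabra3 had a median of 42.8, Gabra5, known from receptors outside synapses, 33.5, and Gabra4, which often pairs with the delta subunit, 20.2. At 10 or more, 29 of 36 cells held 3 or more of the 5 alpha genes. The commonest set was Gabra2, Gabra3, Gabra4 and Gabra5, in 13 cells, and 4 further cells held Gabra6 as well. These are transcripts in a cell, and which subunits share a channel was not measured.

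Gabra6, best known from cerebellar granule cells, was at 10 or more in 6 cells and far higher in 1 of them. Cell Q.2, a Slc17a6-rich dSC cell of the Sox2-CreER line, had 413. Cell C.1, in neither class, had 85.9 and was next, and the other 4 ran from 11.6 to 35.1. Q.2 also had Gabrb2 at 152, the highest of all cells, and Gabra5 at 189. Q.2 also ranked 8th for the astrocyte sum, 2nd for the oligodendrocyte sum and 5th for the microglial sum of the 36 cells.

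Of the beta subunit genes, Gabrb1 had a median of 55.8 and Gabrb2 of 25.3, and both were at 10 or more in 24 cells. Among the gamma-class genes, Gabrg1 had a median of 17.5 and reached 10 in 25 cells, Gabrg3 had a median of 6.25 and reached 10 in 14, and Gabrd, the subunit of receptors that carry tonic inhibition, reached 10 in 12 with a highest value of 47.1. Of the 12 cells with Gabrd at 10 or more, 11 also had Gabra4 and 5 had Gabra6. Over all 36 cells Gabra4 reached 10 in 26 and Gabra6 in 6. No listed gamma-class gene reached 10 in 6 cells.

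The rho subunit genes gave the sharpest split between cells. Gabrr1 (ENSMUSG00000028280) was listed at 0 in 29 cells and Gabrr2 (ENSMUSG00000023267) in 27. Together they reached 10 in 9 cells of 8 clones. Gabrr2 was highest in N.1 at 699, A.2 at 599 and M.2 at 301, and lay at 185 in I.2, 141 in F.2, 55.7 in K.1 and 36.3 in N.2. Gabrr1 was 434 in N.1, 100.3 in A.2, 84.3 in I.2, 69.5 in M.2, 39.9 in C.2 and 12.2 in Q.1. All 4 cells with both genes at 10 or more had more Gabrr2 than Gabrr1. N.1 and N.2 are the only siblings in which both cells carried a rho gene at that level.

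The cells with rho transcripts were mostly those richest in Gad1. By class they were 7 of 19 Gad-rich cells, 1 of 5 with both and 1 of 11 Slc17a6-rich cells, and by tissue 8 of 22 sSC, 1 of 12 dSC and 0 of 2 PAG cells. Ordered by Gad1, 7 of the 8 highest cells (Gad1 from 535 to 1145) had a rho gene at 10 or more, against 2 of the other 28. The exception among the 8 was D.2, a PAG cell with Gad1 at 964 and both rho genes at 0. That grouping was chosen after the values were seen and is a description only. Over the 36 cells Gad1 had a Spearman's rho of 0.47 with Gabrr1 and 0.51 with Gabrr2. For Gabrr1 it was 0.66 within sSC (22 cells) and 0.12 within dSC (12 cells), and for Gabrr2 0.59 and 0.41. The 9 cells ranged from 7652 to 16769 genes at 1 or more, from 69.6 to 1232 in astrocyte markers and from 1085 to 13651 in oligodendrocyte markers.

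**Figure D2:**
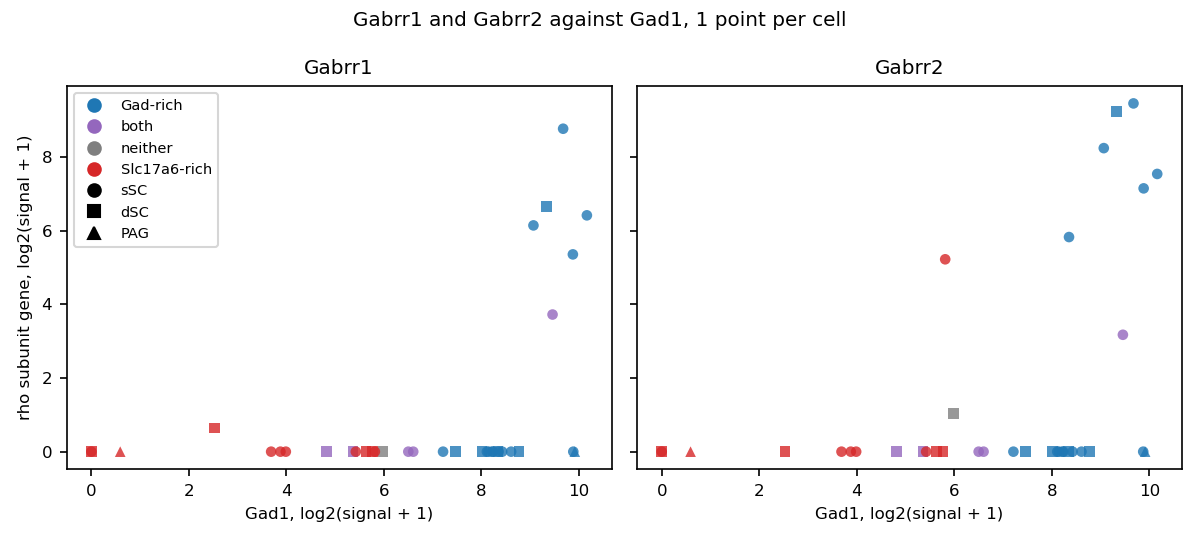
Gabrr1 (left) and Gabrr2 (right) against Gad1 as log2(signal + 1), 1 point per cell, coloured by class and shaped by tissue. The high points stand at the right, where Gad1 is 535 or more, with K.1 and N.2 as the Gabrr2 points to their left.

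The rho genes were too rare for the filter of the class comparison, which needed a signal of 1 in 25% of cells. Without that filter, Gabrr1 was 2.35 higher (log2, SE 1.05) and Gabrr2 2.60 higher (SE 1.31) in Gad-rich than in Slc17a6-rich clone means, with limma adjusted p = 0.825 for each. Neither passed the threshold.

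Gabrr1 and Gabrr2 lie side by side on chromosome 4 with no coding gene between them, and their levels had a Spearman's rho of 0.62 over the 36 cells. Their promoters are shown because these neighbours were high in few cells and at 0 in most. Each is 250 bases before to 50 bases after the RefSeq gene start in GRCm38.p6, an older build than that of the deposited table, with E-box letters (CANNTG, the same on both strands) in capitals. Gabrr1 is at chr4:33132306-33132605 and Gabrr2 at chr4:33062862-33063161, both on the plus strand.
Gabrr1: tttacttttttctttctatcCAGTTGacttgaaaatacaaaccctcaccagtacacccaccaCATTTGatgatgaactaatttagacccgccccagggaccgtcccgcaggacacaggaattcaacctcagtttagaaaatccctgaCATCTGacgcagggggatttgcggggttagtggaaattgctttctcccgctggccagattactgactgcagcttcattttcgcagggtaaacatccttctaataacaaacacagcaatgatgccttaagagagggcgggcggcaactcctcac
Gabrr2: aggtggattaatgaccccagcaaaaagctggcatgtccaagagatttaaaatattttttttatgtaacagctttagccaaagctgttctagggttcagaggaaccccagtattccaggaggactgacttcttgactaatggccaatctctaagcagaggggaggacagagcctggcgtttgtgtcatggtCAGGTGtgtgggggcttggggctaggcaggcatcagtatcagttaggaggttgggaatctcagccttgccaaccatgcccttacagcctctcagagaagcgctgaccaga
The Gabrr1 window holds 3 E-boxes and 9 CG pairs, and the Gabrr2 window 1 E-box and 2 CG pairs. E-boxes occur in 72.3% of the 32851 promoters of the same length, and the median promoter holds 7 CG pairs. Neither window holds the TATA-box letters TATAAA, which occur on either strand in 13.6% of promoters. The GATA letters GATAA, found in 25.4%, are absent from both as well. So is CAGCTG, one form of the E-box, found in 16.3%.

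A second set of neighbours, Gabrg1, Gabra2, Gabra4 and Gabrb1 on chromosome 5, also had levels that went together. Gabra2 and Gabrg1, with no coding gene between them, had a Spearman's rho of 0.63, Gabrb1 and Gabrg1 0.57, and Gabra4 and Gabrb1 0.53. Gabra4 and Gabrb1 overlap on opposite strands, and without a stated use of strand their reads cannot be told apart. Over all 10 pairs of listed GABAA and rho genes that lie in 1 cluster the median was 0.48, with 9 above 0, against 0.04 over the other 68 pairs of these genes, with 41 above 0. Most of the 10 pairs are of the chromosome 5 set, so that median mainly restates it. The pairs share genes and cells, so these are descriptions. Apart from the rho pair, levels in clusters on other chromosomes did not go together to the same degree. The values were 0.17 for Gabra6 and Gabrb2, 0.01 for Gabra5 and Gabrg3 and -0.20 for Gabra3 and Gabrq.

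Of the chromosome 5 set, Gabra2, Gabrg1 and Gabrb1 were highest in the same cells. Gabra4 was highest in U.1, then in T.1 and J.2 (7.55, 6.90 and 6.82 as log2(signal + 1)). J.2, a Slc17a6-rich sSC cell, had Gabra2 at 1211, Gabrg1 at 813 and Gabrb1 at 376, each the highest of all cells. U.1, also Slc17a6-rich and from sSC, had 573, 465 and 234. Gabrg1 is also known from glia, and the astrocyte sums of these cells ranked 29th for J.2 and 32nd for U.1 of 36. In J.2, 5 of the 10 astrocyte markers were at 0 (Gja1, Slc4a4, Sox9, Aldh1l1 and Gjb6), while Aqp4 at 71.8 and Fgfr3 at 6.76 were above their medians over all cells of 12.5 and 0. In U.1 Aldh1l1 was at 0 and Gja1 at 0.77, while 6 of the 10 were above their medians, among them Gjb6 at 50.1, Sox9 at 22.2, Slc4a4 at 14.9 and Aqp4 at 23.6. The part of astrocyte transcripts in the Gabrg1 values was not tested. Their siblings were unlike them: J.1 had Gabra2 at 13.6 and Gabrg1 at 3.31, and U.2 had 29.9 and 17.5. Within sSC alone Gabra2 and Gabrg1 had a Spearman's rho of 0.62 (22 cells), and within dSC 0.48 (12 cells).

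**Figure D3:**
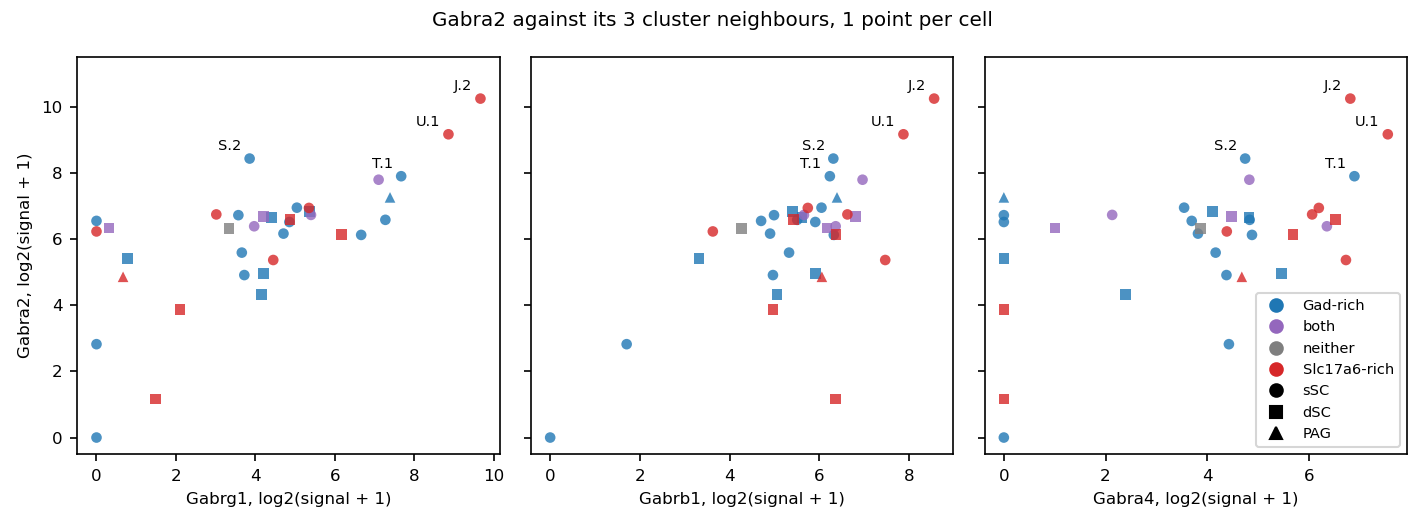
Gabra2 against Gabrg1, Gabrb1 and Gabra4 as log2(signal + 1), 1 point per cell, coloured by class and shaped by tissue. J.2 and U.1 stand at the top right of each panel, and S.2, with Gabra2 at 344 and Gabrg1 at 13.5, is the high Gabra2 cell without high Gabrg1.

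The promoters of Gabra2 (ENSMUSG00000000560) and Gabrg1 (ENSMUSG00000001260) are shown as the pair of this cluster with the highest rank correlation. They are on the minus strand at chr5:71095800-71096099 and chr5:70842568-70842867, from the same source and with the same capitals.
Gabra2: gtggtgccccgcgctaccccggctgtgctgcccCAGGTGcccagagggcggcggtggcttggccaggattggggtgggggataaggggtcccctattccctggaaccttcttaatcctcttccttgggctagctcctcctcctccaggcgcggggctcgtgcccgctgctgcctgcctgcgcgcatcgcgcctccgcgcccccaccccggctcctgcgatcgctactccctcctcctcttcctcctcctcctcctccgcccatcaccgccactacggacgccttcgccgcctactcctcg
Gabrg1: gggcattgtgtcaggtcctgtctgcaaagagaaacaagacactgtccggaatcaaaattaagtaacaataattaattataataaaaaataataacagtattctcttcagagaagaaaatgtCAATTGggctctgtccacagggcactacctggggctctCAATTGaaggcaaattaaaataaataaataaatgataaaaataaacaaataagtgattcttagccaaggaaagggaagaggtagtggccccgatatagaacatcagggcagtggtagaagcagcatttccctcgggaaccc
The windows differ in base composition, with 25 CG pairs and 70.0% G or C for Gabra2 and 3 CG pairs and 38.3% for Gabrg1. Each holds GATAA on at least 1 strand and at least 1 E-box.

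Glycine receptor alpha genes were patchier than Glrb. Glra1, the main adult alpha subunit of the hindbrain and spinal cord, had a median of 9.25 and reached 10 in 17 cells. Glra2, best known from immature neurons, reached 10 in 14 cells and Glra3 in 15, while Glra4 reached 10 in 2, H.2 at 26.6 and Q.1 at 17.8. D.1, a Slc17a6-rich dSC cell, had the highest value of both Glra1, at 97.9, and Glra2, at 132. In all, 24 cells had a listed alpha gene at 10 or more, and the 12 without one had Glrb at that level. An antisense gene, Gm12236, overlaps Glra1 and was at 1 or more in 8 cells.

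The chloride cotransporters differed in the same direction in nearly every cell. Slc12a5, known as KCC2, exports chloride from mature neurons and had a median of 82.3. Slc12a2, known as NKCC1, imports chloride, is also made by glia, and had a median of 8.06. Slc12a5 exceeded Slc12a2 in 34 of 36 cells. The exceptions were F.2, with Slc12a5 at 40.8 and Slc12a2 at 43.2, and B.2, with both at 0. The log2 difference, Slc12a5 minus Slc12a2, had a median of 3.43 in Gad-rich cells and 2.81 in Slc17a6-rich cells, and the groups overlapped (-0.08 to 7.33 against 0.44 to 6.44). Within tissues the medians went in opposite directions. They were 1.35 in 13 Gad-rich and 3.62 in 6 Slc17a6-rich sSC cells, but 4.25 in 5 Gad-rich and 2.30 in 4 Slc17a6-rich dSC cells, and this was not tested.

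**Figure D4:**
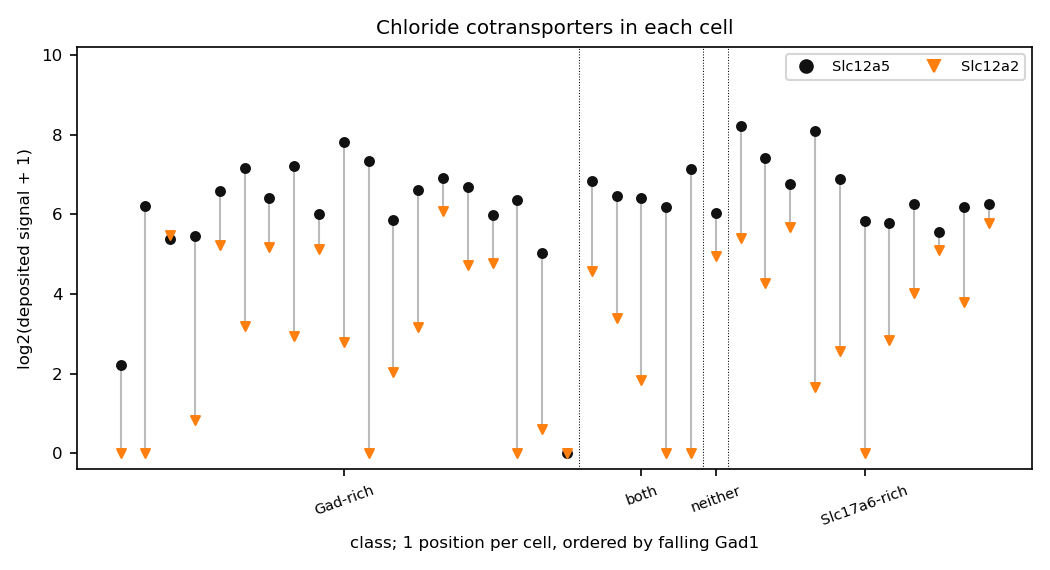
Slc12a5 (circles) and Slc12a2 (triangles) in each cell as log2(signal + 1), grouped by class, with a grey line joining the genes of 1 cell. The circle lies above the triangle in 34 of 36 cells.

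Among the organisers, Clptm1, which holds back GABAA receptors from the cell surface, had a median of 37.6, and Iqsec3, a gephyrin-binding exchange factor, 18.4. Slitrk3, an adhesion protein of inhibitory synapses, had a median of 16.1 and its highest value, 159, in I.2. Shisa7, a GABAA receptor auxiliary protein, had a median of 4.73. Shisa7 and Slitrk3 had the highest Spearman's rho of all 351 pairs of members with a value above 0, at 0.65, where the median pair had 0.11. At 10 or more, 11 of the 12 cells with Shisa7 also had Slitrk3.

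The next question was whether Gad-rich and Slc17a6-rich neurons differ in these genes, compared over 14 and 9 clone means. The groups had like numbers of genes at 1 or more, with medians of 11828 in Gad-rich and 11898 in Slc17a6-rich cells. Of all 14356 genes tested, 10 passed an adjusted p of 0.05 (0.0697%), among them Gad1, Gad2, Slc17a6, which define the classes, and Slc32a1, the vesicular GABA transporter. None of the 23 members tested passed, each with limma adjusted p = 0.999. At an unadjusted p under 0.05 there were 3 members, Gabrb2, Gabra4 and Gabrb1, all lower in Gad-rich cells, where 4.63% of all genes had such a p. That count was 1 without B.2, with tissue as a covariate, in sSC cells only and at a pseudocount of 0.1. It was 2 with the class line at 50 or at 200. A count of 4 was reached without a filter, under quantile normalization and with cells classed by the higher of their GABA and glutamate transmitter genes. With clone as a block the smallest unadjusted limma p of a member was 0.0909, for Gabra4. In the main fit, which includes B.2, 18 of 23 members were lower in Gad-rich cells. Their median difference was -0.39, against -0.05 over all genes, of which 53.1% were lower. Without B.2 the median over all genes was 0.05, with 52.8% higher in Gad-rich cells. With clone as a block it was 0.45, with 66.3% higher. Members then went both ways, from -1.85 for Gabra4 to 1.23 for Gabra3.

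Gabrb2 had a lowest, median and highest value of 0, 12.4 and 74.7 in Gad-rich cells and of 2.05, 45.3 and 152 in Slc17a6-rich cells. The groups overlapped, and clone means on the log2 scale were 3.64 ± 2.04 (SD, 14 clones) and 5.41 ± 1.05 (SD, 9 clones). The difference was -1.77 (SE 0.76, unadjusted p = 0.0276), and -1.54 without B.2, where Gabrb2 was 0. In the 5 clones that hold a cell of each class (A, D, N, R and U) Gabrb2 was higher in the Gad-rich sibling in 4, and the fit with clone as a block gave a difference of 0.64, of opposite sign, where the median of all genes was 0.45.

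Gabra4 was 0, 16.2 and 118 at its lowest, median and highest in Gad-rich cells, against 0, 66.0 and 187 in Slc17a6-rich cells. The difference was -1.98 (SE 0.89, unadjusted p = 0.0333). Within clones it was lower in the Gad-rich sibling in 4 of 5 and at 0 in both in the fifth. The Gad-rich siblings had 16.2 in clone A, 10.7 in N, 17 in R and 43.0 in U, against 72.4, 105, 66.0 and 187 in the Slc17a6-rich siblings of those clones. The blocked difference was -1.85 (SE 0.99, adjusted p = 0.844). Among dSC cells alone the difference was 0.84, of opposite sign, and among sSC cells alone -3.20.

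Gabrb1, its overlapping neighbour, was 0, 41.1 and 83.1 at its lowest, median and highest in Gad-rich cells, against 11.3, 81.4 and 376 in Slc17a6-rich cells. The difference was -1.16 (SE 0.53, unadjusted p = 0.0363), and it was lower in the Gad-rich sibling in 4 of 5 clones. None of the Gad-rich cells had Gabrb1 at 100 or more, while 3 of the 11 Slc17a6-rich cells did. Astrocyte markers summed to a median of 971 (69.6 to 2215) in Gad-rich cells and 574 (382 to 2196) in Slc17a6-rich cells, and their part in these differences was not tested.

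With clone as a block, limma called 0 genes in the whole table and 842 had an unadjusted p under 0.05. Of 32 other inhibitory synapse genes tested, none passed, 0 had an unadjusted p under 0.05, 13 were higher and 19 lower in Gad-rich cells. Those with the smallest p were Rdx, the radixin that ties Gabra5 receptors to actin, at 1.17, and Stk39, a kinase that regulates chloride cotransporters, at -1.31.

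**Figure D5:**
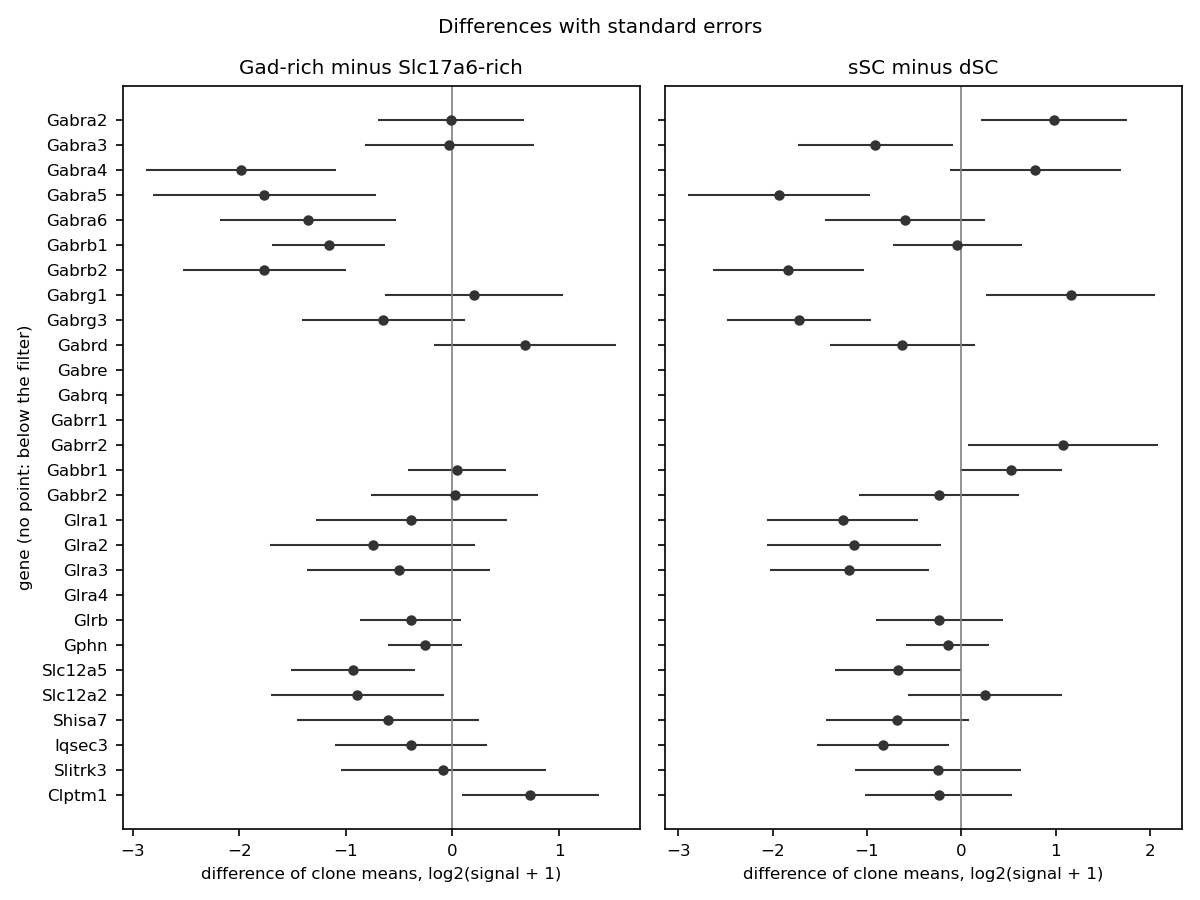
Difference of clone means with standard error for each member that passed the filter, Gad-rich minus Slc17a6-rich (left, 23 genes) and sSC minus dSC (right, 24 genes), as log2(signal + 1). Most members are below 0 in each panel, 18 on the left and 18 on the right, Gabra5 and Gabrb2 among them in both. None of the members passed the adjusted threshold in either.

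Superficial and deep cells were compared over 16 and 11 clone means. No gene of 14613 passed (0%), and 754 had an unadjusted p under 0.05 (5.16%). The median difference of all genes was -0.31, with 67.3% lower in sSC, and 18 of 24 members were lower, with a median of -0.42. With the number of genes at 1 or more as a covariate the median of all genes was 0.07. Gabrb2, the member with the smallest p in the main fit, then differed by -1.48 (unadjusted limma p = 0.0642). In that fit 1 member had an unadjusted p under 0.05, and it was not Gabrb2. With clone as a block 1 gene passed, Lst1, which is not a member. The 2 members with an unadjusted p under 0.05 without the block were Gabrb2 and Gabrg3.

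Gabrb2 had a lowest, median and highest value of 0, 18 and 107.6 in sSC cells and of 4.13, 51.2 and 152 in dSC cells, overlapping ranges. The difference was -1.83 (SE 0.80, limma adjusted p = 0.941), and -1.59 without B.2. It was lower in the sSC sibling in 8 of the 9 clones split between sSC and dSC, and the blocked difference was -2.53 (SE 0.90, adjusted p = 0.489), where the median of all genes was -0.66. Gabrg3 was 0, 3.24 and 59.3 in sSC cells and 0.13, 15.3 and 88.4 in dSC cells, with a difference of -1.72 (SE 0.76, adjusted p = 0.941). Without B.2 that difference was -1.58. Gabrg3 was lower in the sSC sibling in 7 of 9 clones. Clone B is among the lower clones for both genes, with both at 0 in its sSC cell B.2.

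Other members showed the same direction within clones without passing a test, and so did most genes. With clone as a block, only 23.1% of all 14613 genes were higher in sSC, with a median difference of -0.66. Slc12a5 was lower in the sSC sibling in 8 of 9 clones, with a median difference of -0.80, and Gabbr2 in 7 of 9. Both were at 0 in B.2, the sSC sibling of clone B. Gabra5 differed by -1.93 (SE 0.96, adjusted p = 0.961), with 8 of 22 sSC cells and 1 of 12 dSC cells at 0. It overlaps other genes on the opposite strand. In contrast Gabra2 was higher in the sSC sibling in 7 of 9 clones and Gabrg1 in 6 of 9. Astrocyte markers summed to a median of 719 (69.6 to 1930) in sSC and 1126 (382 to 2215) in dSC, microglial markers to 1793 (62.2 to 10964) and 2846 (55.7 to 11213), and their part was not tested. Among 33 other inhibitory synapse genes, 10 were higher and 23 lower in sSC, 3 had an unadjusted p under 0.05 and none passed. The smallest p belonged to Stk39 at -1.70 and Nlgn2, the neuroligin of inhibitory synapses, at -1.58.

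The drivers were compared within sSC over 11 Fz10-CreER and 5 Sox2-CreER clone means. No gene of 14320 passed (0%), and 587 had an unadjusted p under 0.05 (4.1%), against 2 of 24 members. In all 17 of 24 members were lower in Fz10-CreER cells, with a median of -0.40, against -0.38 over all genes. The median number of genes at 1 or more was 11544 in Fz10-CreER cells and 13450 in Sox2-CreER cells. With that number as a covariate the median over all genes was 0.13, and the differences were -3.39 for Gabrr2, -1.48 for Glra3 and 3.09 for Gabra3, none past the threshold. Gabrr2 was the first of the 2 members with an unadjusted p under 0.05, with a lowest, median and highest value of 0, 0 and 185 in 15 Fz10-CreER cells and of 0, 36.3 and 699 in 7 Sox2-CreER cells. It was at 1 or more in 2 of the 15 and in 5 of the 7, and at 0 in the others. Gabrr2 thus passed the filter mainly through Sox2-CreER cells, and it was below the filter in the class comparison. In a fit without a filter it was the only member with an unadjusted p under 0.05 (-3.40, SE 1.27, limma p = 0.0132, adjusted p = 0.753). In the main fit the difference of Gabrr2 was -3.40 (SE 1.24, limma adjusted p = 0.9999). Leaving out 1 clone at a time, that difference ran from -4.49 without clone H to -2.71 without clone F and -2.66 without clone N. Gad1 went the same way, with medians of 282 in Fz10-CreER cells and 535 in Sox2-CreER cells, and its part was not tested. Glra3 was the other, at 0, 0.23 and 58.9 in Fz10-CreER cells and 0, 15.1 and 67.5 in Sox2-CreER cells, a difference of -2.18 (SE 1.07). Gabra3 differed by 2.11 and Slc12a2 by -1.96, neither past the threshold. Of 33 other inhibitory synapse genes, 12 were higher and 21 lower in Fz10-CreER cells and none passed, with Clcn2, a chloride channel, at -2.41 and Kctd16, a GABAB auxiliary subunit, at -1.47 having the smallest p.

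The last question was whether siblings share levels, tested over 16 clones with both cells in sSC or dSC. In all 3 of 15132 genes passed (0.0198%) and 1180 had an unadjusted p under 0.05 (7.8%), against 0 of 24 members. Gabra5 had the smallest p of the members (limma adjusted p = 0.643, sibling correlation 0.28), then Gabrb2 (adjusted p = 0.671, 0.34). Of 33 other inhibitory synapse genes 0 passed and 0 had an unadjusted p under 0.05, with Plcl1, a GABAA receptor trafficking protein, and Kctd8, a GABAB auxiliary subunit, the smallest. Gphn was the closest of the widely detected genes between siblings, with a median absolute log2 gap of 0.46 over 18 pairs, and Glrb next at 0.60. These gaps were not set against those of unrelated cells, so they do not show that siblings are alike. In the clone test Gphn had a limma adjusted p of 0.910 (sibling correlation 0.42) and Glrb of 0.847 (-0.12). Gabrg1 had a median gap of 3.61, with 1 sibling at 10 or more and the other below in 11 of 18 clones. A rho gene was likewise found in 1 sibling only in 7 of the 8 clones that had one.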

How the data were processed

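Libraries were prepared from polyadenylated RNA of 36 single neurons (labels' protocols: SMART-Seq Single Cell PLUS). The submitters' processing notes list STAR 2.7.9a, R 4.0.3 and the GRCm39 build. How reads were counted, with which annotation, strand setting and formula, was not stated there. The deposited signal per gene and cell is what the authors called TPM of exon plus intron. Since each cell sums to 2000000, it was handled as a normalised signal; the plan had assumed ordinary TPM, and the planned log-scale test serves both. No depth is kept, so no counting interval is given.

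Symbols came from GENCODE M21 for 52083 of 55359 genes, and gene neighbours and overlaps from annotations of the older GRCm38 build. RefSeq promoters were found for 25 of the 28 genes. Values were transformed as log2(value + 1), which understates differences of low genes, and a gene entered a comparison when 25% of its cells had a value of 1 or higher. The test was limma 3.58.1 in R 4.3.3 (eBayes, trend and robust, Benjamini-Hochberg, threshold 0.05). Cells of 1 clone and group were averaged. No label names an animal, so p-values describe the spread between clones, and clone and animal cannot be told apart. For the clone effect, a moderated F test of limma was run with tissue as a covariate. The fit was tested on simulated data.

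Siblings come from 1 animal by the design, so clone pairs cells of different groups and was also fitted as a block. Deviations of the siblings in sSC and dSC correlated between -0.03 and 0.06, with 0 of 9 pairs above 0.1. Counts at a signal of 10, sibling counts and Spearman correlations are descriptions. Alternatives changed the pseudocount (0.1, 10), filter, normalisation, class line, covariates, clones and the counting signal (1, 100).

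The members, lists, groups and tests were chosen with earlier results of these data known. All 28 members are named, with the class genes, Snap25, the 2 genes of smallest p of the other synapse list per comparison where none passed, and the 2 markers of highest median of each other cell type (none of the vascular list, where every median is 0). One marker is not reported here and stayed out of the sums. Further genes are named where a count or value singled them out. Python 3.11.15, numpy 2.4.6, pandas 2.3.3 and matplotlib 3.10.9 were used.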

Additional observations from a re-analysis of the deposited data

Results flagged for a closer look

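Some clone means, as log2(signal + 1), stood apart from the others of their group by Dixon's criterion. It was applied to 54 sets of 5 or 9 clone means. Chance meets it in about 1 of 20 groups of normally distributed values, but that rate does not hold for genes at 0 in most clones. A gene with signal in 1 clone only is marked whatever its level, so the number marked cannot be set against that rate. The criterion marked 9 values. In Slc17a6-rich cells, a single clone carried the only signal of a gene in 4 cases: Gabrq in clone L at 2.26, Gabrr1 in clone J at 0.32, Gabrr2 in clone N at 5.22 and Glra4 in clone H at 4.79. Iqsec3 was lowest in clone A, at 0, where the next clone had 4.08. Among Sox2-CreER sSC cells, clone Q was highest for Gabra6 at 5.17 and for Glra4 at 4.24, where the next clone had 0. In the same cells clone H was lowest for Gabra4 at 2.13 and clone F lowest for Gabbr2 at 3.00.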

How the results depend on the processing

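No member passed the threshold in any of the 112 fits run, where the smallest adjusted p was 0.328 for Gabrr2 between drivers without clone H. The direction of the named member differences reversed in 3 cases: Gabrb2 between classes with clone as a block (0.64), and Gabra4 (0.84) and Gabra5 (1.21) between classes in dSC cells only. The cause was not tested. The count of all genes past the threshold between classes, 10 in the main fit, was 6 without a filter, 2 in sSC cells only, and 0 both in dSC cells only and with clone as a block, and ran from 3 (without clone A) to 13 when single clones were left out, with 6 without each of clones H, I and J. Between tissues, with 0, it was 1 at a pseudocount of 10, under quantile normalization and with clone as a block, and 0 to 1 when clones were left out (1 without B, D, N, O or T). Between drivers, with 0, it was 1 at a pseudocount of 10, and 0 to 5 when clones were left out (5 without H, 1 without F). For the clone effect, with 3, it was 6 at a pseudocount of 0.1, 60 without a filter, 1 at the 50% filter and 1 without trend and robust, and 2 to 5 when clones were left out (5 without S). Members past the threshold stayed at 0 to 0. Counting at 100 in place of 10, the median number of GABAA and rho genes per cell was 1 in place of 7, cells with at least 3 alpha genes 2 in place of 29, cells with a rho gene 5 in place of 9 and cells with a glycine alpha gene 2 in place of 24. At 1, and without B.2 (added after the data were seen), these counts stayed within 1.5 times. A value of 0 in a library of unknown depth does not show absence.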
